A study of Mus musculus with 12 samples.

Results

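Rods and cones turn light into an electrical signal through a common cascade, with separate genes at most of its steps. Of the genes involved, 33 were followed in mouse retinas after a laser burn. The members were taken by gene name from the 54367 genes of the 2 deposited tables, 22 as rod genes and 11 as cone genes, and all 33 were present in both. These classes are labels of the list, and how far cones also use genes of the rod list was not tested. Retinas of wildtype C57BL/6 mice aged 8 to 12 weeks were used. The right eye was burned with a 532 nm laser at 4 clock positions (75 µm spots, 0.1 s), and the left eye, never lasered, was the autologous control. Whole retinas were taken on day 3 or day 7, so the 4 groups are lasered and control retinas of each day, with 3 libraries each. Reads assigned to genes came to 9282005 to 12515821 per library on day 3 and to 23886203 to 31092906 on day 7. Levels are the deposited values, which the authors named TPM (a level per length of transcript, scaled to the library's total). Nothing in the labels says whether a library came from 1 retina or from a pool, and p-values reflect only how these libraries spread, which may be technical.

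A photon changes the shape of a visual pigment, the pigment activates the G protein transducin, and transducin releases the brake on phosphodiesterase 6, which breaks down cyclic GMP. Channels held open by cyclic GMP then close and the cell hyperpolarises. The signal is ended by a receptor kinase, by arrestin, by a GTPase-activating protein and by calcium sensors that restart cyclic GMP synthesis. Rods serve dim light and cones serve bright light and colour, and at most steps each cell type uses its own paralog. Photoreceptors lie next to the pigment epithelium, which absorbs much of the light of a retinal laser.

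The members' promoters are shown for 4 genes whose day 3 values went different ways: 2 cone genes below the controls, 1 rod gene above them and 1 rod gene nearly level. Each sequence is the 250 bases before the RefSeq start on GRCm38.p6, read 5′ to 3′ on the gene's strand, with none of its bases inside an annotated GENCODE exon. Capitals mark TAATCC, the core of the sites of the photoreceptor factors CRX and OTX, or TGCTGA, the half-site of NRL and other MAF factors, on either strand (GGATTA and TCAGCA are the reverse forms). Opn1sw, the short-wavelength cone pigment, has its window at chr6:29380514-29380763 on the minus strand. Arr3, cone arrestin, has it at chrX:100605247-100605496 on the plus strand. Cngb1, a subunit of the rod channel, has it at chr8:95306586-95306835 on the minus strand. Sag, rod arrestin, has it at chr1:87803430-87803679 on the plus strand.
Opn1sw: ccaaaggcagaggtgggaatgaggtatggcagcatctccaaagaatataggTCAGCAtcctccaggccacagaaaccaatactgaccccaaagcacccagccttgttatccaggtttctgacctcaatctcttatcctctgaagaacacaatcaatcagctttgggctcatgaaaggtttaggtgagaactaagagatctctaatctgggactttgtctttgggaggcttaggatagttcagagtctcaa
Arr3: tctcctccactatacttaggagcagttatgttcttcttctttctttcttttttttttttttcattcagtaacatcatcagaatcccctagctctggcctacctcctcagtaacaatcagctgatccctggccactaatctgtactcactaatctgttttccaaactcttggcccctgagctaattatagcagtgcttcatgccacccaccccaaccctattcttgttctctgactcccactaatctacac
Cngb1: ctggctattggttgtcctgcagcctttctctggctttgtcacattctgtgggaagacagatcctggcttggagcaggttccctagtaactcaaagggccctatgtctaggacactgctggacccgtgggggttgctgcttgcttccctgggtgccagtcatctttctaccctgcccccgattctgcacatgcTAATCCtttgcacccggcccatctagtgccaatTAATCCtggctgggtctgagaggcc
Sag: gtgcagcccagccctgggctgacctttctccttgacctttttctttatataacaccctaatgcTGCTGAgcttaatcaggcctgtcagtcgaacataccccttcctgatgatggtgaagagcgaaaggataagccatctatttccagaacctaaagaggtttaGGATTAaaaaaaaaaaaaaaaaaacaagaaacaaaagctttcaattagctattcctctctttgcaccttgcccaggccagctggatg
The Cngb1 window held TAATCC at positions -58 and -25 from the start site, and the Sag window held 1 match of each kind, at -87 and -187. The Opn1sw window held 1 match to TGCTGA on the other strand, at -199, and the Arr3 window held no match to either. The table held 25 windows for 23 of the 33 members, 16 of them on rod genes and 9 on cone genes. TAATCC was in 6 of the 16 rod windows (37.5%) and in 1 of the 9 cone windows (11.1%), against 6.25% of all 32851 windows of that length. Windows were counted also where they lay in annotated exons. Among those with TAATCC, the windows of Cnga1 and of Gnat2, the 1 cone match, lay wholly in exons (250 bases). That of Gngt1 had 216 bases in exons. The 9 cone windows covered 7 genes. TGCTGA was in 18.8% of the rod windows and 11.1% of the cone windows, against 16.1% of all windows. No matches overlapped in the windows shown, and a match is a description of the sequence.

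On day 3 most members lay below the controls, and none passed the test. Of the 22 rod members 19 had a lower mean log2 value in lasered retinas, with a median difference of -0.44 (range -1.23 to 0.80). Of the 11 cone members 10 did, with a median of -0.43 (range -1.68 to 0.90). Over all 16786 genes tested the median was 0.16, and 31.8% were lower. With limma and Benjamini-Hochberg adjustment over all genes tested, 0 of the 33 members were called on day 3, where 0.149% of all genes were called, 0.143% higher and 0.00596% lower. At an unadjusted p under 0.05 there were 7 members, against 23% of all genes: 5 were lower (Gngt1, Gnb1, Pde6g, Cnga1 and Gnat2), against 2.29% of all genes, and 2 were higher (Cngb1 and Gnb3), against 20.7%. Groups of 3 that did not overlap were more frequent: 5 rod and 8 cone members had every lasered library below every control, against 3.82% of all genes, and 2 rod members and 1 cone member had every lasered library above, against 27.7% of all genes. In bulk retina, fewer photoreceptors and less RNA per photoreceptor cannot be told apart.

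The lasered libraries of day 3 were unequal. Lasered replicate 1 had a median rod difference of -1.10 from the control mean with 20 of 22 genes below, replicate 2 had 0.03 with 11 below, and replicate 3 had -0.29 with 19 below. The cone medians were -0.88, -0.23 and -0.43 in that order, with 10 of 11 genes below in each of the 3. So the cone members were low in every lasered library, while the rod members were low in 2 and level in the other. As a share of a library's whole signal, rod members made up 3.66% to 4.14% in controls and 1.68%, 4.12% and 3.09% in lasered replicates 1, 2 and 3. Cone members made up 0.302% to 0.321% in controls and 0.131%, 0.264% and 0.254%. Without lasered replicate 1 the rod median was -0.17 with 14 of 22 genes below, and the cone median was -0.25 with 10 of 11 below. Removing each library's trend with GC content gave -0.75 for rods and -0.68 for cones, and it moved the median of all genes from 0.16 to -0.06. Median-of-ratios scaling moved that median to -0.03 and gave -0.66 for rods and -0.64 for cones. Library weights gave -0.27 and -0.29.

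**Figure D1:**
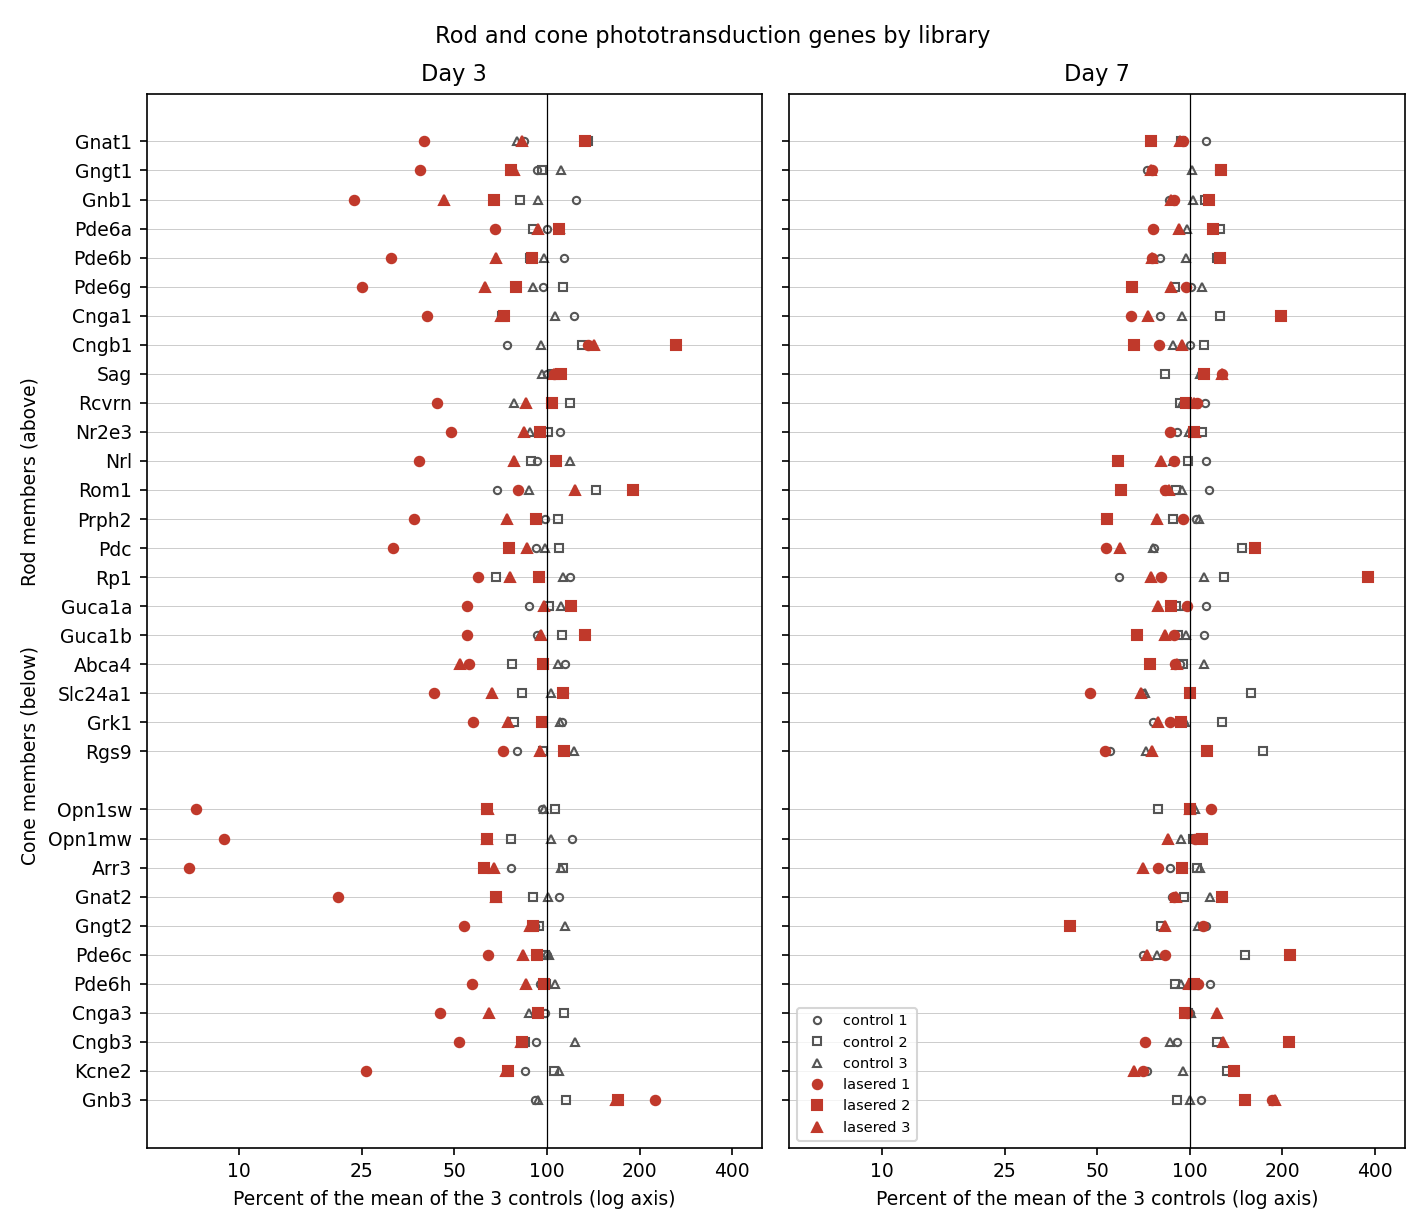
Each of the 33 members in each library as a percent of the mean of the 3 controls of that day (log axis), rods above and cones below. On day 3 lasered replicate 1 (red circles) lies lowest for most members, at 6.85% for Arr3, while Gnb3 lies to the right of 100 in all lasered libraries on both days.

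Lasered replicate 1 also stood apart in the rest of its transcriptome. Its log2 values correlated with those of the controls by 0.876 to 0.890, where lasered replicates 2 and 3 gave 0.958 to 0.970. Summed over the 5 neutrophil markers its signal was 1001, against 2.77 and 48.2 in the other lasered libraries and 1.80 to 2.53 in controls. Of the 2 neutrophil markers tested both had a higher mean log2 value in lasered retinas, 1 of them without overlap. For the counts here, 27.7% of all genes were above the controls without overlap and 3.82% were below without overlap. A lower mean was found for 31.8% of all genes. The 10 reactive gliosis markers were above the controls in 10 of 10 cases, with sums of 5878, 321 and 542 against 38.0 to 51.1. Of the 10 microglia markers tested 9 were above, with sums of 569, 201 and 236 against 65.7 to 70.3. All 7 monocyte and macrophage markers had a higher mean log2 value, 5 of them without overlap. Their sums were 2000, 211 and 286 against 42.3 to 48.3, and Ccr2 was at 0 in the 3 controls. Of 9 pigment epithelium and melanocyte markers tested 8 had a lower mean log2 value, 0 of them without overlap. In lasered replicate 3 only 2 of the 9 were below the control mean. The sums were 63.5, 227 and 739 against 372 to 591, and no marker was at 0. Lasered replicate 2, where the rod members were level, had a lens marker sum of 354, against 7.07 and 1.65 in lasered replicates 1 and 3 and 0.176 to 2.77 in controls, with Crygs at 0 in control replicates 1 and 3. Lower means were found for 3 of 7 retinal ganglion cell markers tested (median 0.18) and 2 of 7 amacrine and horizontal cell markers (median 0.24). Of 9 Müller glia markers 4 were lower and 5 higher (median 0.38, 1 called). All 3 endothelial markers tested were higher (median 0.99). The part of these cell types in the photoreceptor values was not tested.

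The cone pigments and cone arrestin had the most negative differences of any member on day 3 with all libraries in, and without lasered replicate 1 that place was taken by Gnb1 (-0.82). Opn1sw (chr6:29376671-29388468, mm10) was at 73.3, 644 and 652 in lasered replicates 1, 2 and 3 on day 3 and at 974, 1070 and 986 in controls. The lasered libraries were all below the controls, at 7.26%, 63.8% and 64.6% of the control mean. The difference was -1.68 on the log2(value + 1) scale (SE 0.78, limma adjusted p = 0.249). Without lasered replicate 1 it was -0.64 (adjusted p = 0.053). Opn1mw, the middle-wavelength pigment, was at 49.9, 357 and 357 in lasered retinas and at 675, 428 and 576 in controls, again without overlap. Its difference was -1.56 (SE 0.72, limma adjusted p = 0.248), and its lasered replicate 1 stood at 8.91% of the control mean. Without that library the Opn1mw difference was -0.62. Arr3 (chrX:100605497-100618493), which binds the activated cone pigment and stops it, was at 27.4, 249 and 269 against 306, 451 and 443. The groups did not overlap, and replicate 1 was at 6.85% of the control mean. The Arr3 difference was -1.67 (SE 0.81, limma adjusted p = 0.265), and -0.60 without that library. In all 3 genes lasered replicates 2 and 3 lay close together and replicate 1 far below them.

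Rod arrestin did not share that pattern. Sag was at 2608, 2752 and 2616 in lasered retinas on day 3 and at 2473, 2567 and 2390 in controls. Its lasered libraries were all slightly above the controls, replicate 1 included, at 105% of the control mean. The difference was 0.10 (SE 0.11, limma adjusted p = 0.617), and it crossed 0 in 3 of 19 alternative settings (range -0.13 to 0.15). As a ratio within a library, Arr3 was 1.05%, 9.06% and 10.3% of Sag in the lasered retinas and 12.4%, 17.6% and 18.5% in controls. On day 7 Sag was at 3094, 2705 and 3102 against 2655, 2017 and 2632, with lasered libraries above the controls and a difference of 0.29 (SE 0.19, limma adjusted p = 1.00). Arr3 was then at 150, 179 and 134 against 164, 200 and 205, and its groups overlapped.

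Of the alpha subunits of transducin, the cone form had the lower values relative to controls. Gnat2, the cone form, was at 75.7, 248 and 246 in lasered retinas on day 3 and at 396, 326 and 364 in controls. The groups did not overlap and lasered replicate 1 was at 20.9% of the control mean. Its difference was -1.11 (SE 0.44, limma adjusted p = 0.191), and -0.54 without that library. Gnat1, the rod form, was at 2200, 7344 and 4571 against 4645, 7487 and 4414. These groups overlapped, with only replicate 1 below the control range, and the difference was -0.35 (SE 0.43, limma adjusted p = 0.663), crossing 0 in 2 of 19 settings. On day 7 both forms overlapped with their controls: Gnat1 was at 15378, 12108 and 15034 against 18164, 15072 and 15174. Gnat2 was at 211, 301 and 214 against 207, 228 and 277.

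The beta subunits had differences of opposite sign. Gnb1 encodes the beta subunit of rod transducin and is expressed in many other cells too. It was at 1395, 3982 and 2730 in lasered retinas on day 3 and at 7369, 4850 and 5522 in controls, all lasered libraries below all controls. Its difference of -1.23 (SE 0.37, limma adjusted p = 0.125) was the lowest of any rod member, and the joint fit of 12 libraries called it lower (adjusted p = 0.044). Without lasered replicate 1 the Gnb1 difference was -0.82. Gnb3 (chr6:124834240-124840275) encodes the beta subunit of cone transducin and is also used by bipolar cells that respond to light onset. It was at 845, 642 and 634 in lasered retinas and at 345, 436 and 352 in controls. All lasered libraries lay above all controls, at 224%, 170% and 168% of the control mean, and replicate 1, the lowest for the other cone genes, was here the highest. The difference was 0.90 (SE 0.17, limma adjusted p = 0.088), the smallest adjusted p of any member, and 0.76 without lasered replicate 1. The joint fit (adjusted p = 0.015) and library weights (adjusted p = 0.041) called Gnb3 higher on day 3. Of all 16786 genes the joint fit called 1139 (1104 higher and 35 lower) and library weights called 369 (363 higher and 6 lower). The count was 25 as reported and 0 with the replicate number as a block.

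Gnb3 was above the controls on day 7 as well. It was at 1235, 1009 and 1260 in lasered retinas and at 721, 606 and 668 in controls. The groups did not overlap, and the lasered libraries stood at 186%, 152% and 189% of the control mean. The day 7 difference was 0.81 (SE 0.15, limma adjusted p = 0.208). Library weights called it (adjusted p = 0.019), as did removing the GC trend (adjusted p = 0.038, and 0.085 with the replicate number as a block too). Of all 15592 genes library weights called 114 and removing the GC trend called 76, against 38 as reported. The alternatives kept the Gnb3 difference at 0.48 to 1.01 on day 3 and at 0.70 to 0.91 on day 7. None of the other 10 cone members had all its lasered libraries above its controls on either day. Of 10 bipolar cell markers 8 had a lower mean log2 value on day 3, with a median of -0.18 (range -0.44 to 0.82). In 2 every lasered library was below every control, against 3.82% of all genes. In 1 every lasered library was above, against 27.7% of all genes. The summed signal of the 10 markers was 1181 to 1595 in lasered and 1577 to 1755 in control retinas. On day 7 9 of 10 had a higher mean (median 0.14, sums of 1426 to 1451 and 1203 to 1411). Of these 1 was without overlap, against 6.78% of all genes. None of the bipolar markers was called on either day or was at 0. Gng13, which partners the beta subunit in bipolar cells, was at 552, 705 and 539 on day 3 against 624, 605 and 784. The part of bipolar cells in the Gnb3 value was otherwise not tested.

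**Figure D2:**
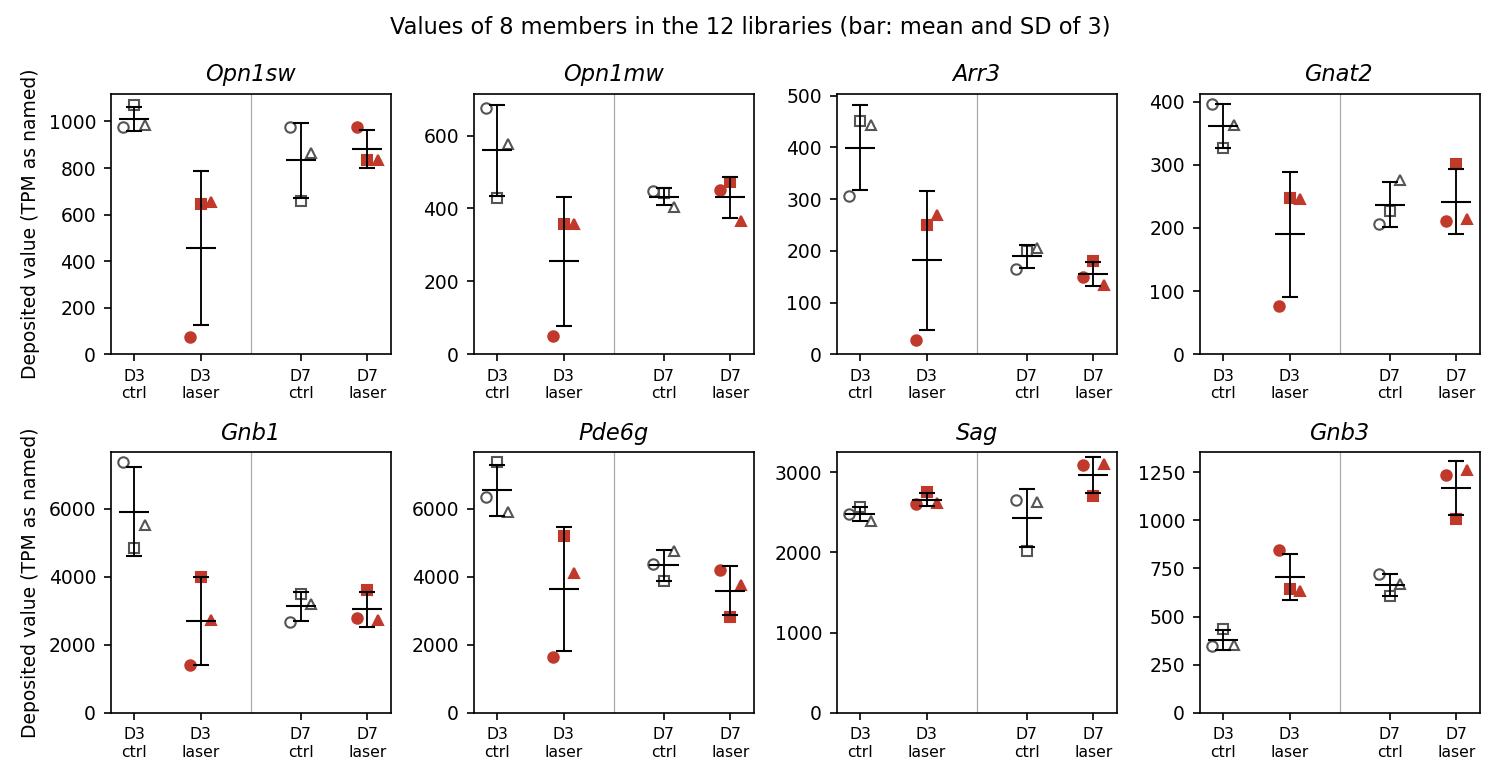
Deposited values (named TPM) of 8 members in the 12 libraries, with the mean and SD of each group of 3; open symbols are controls and red symbols lasered retinas, and the 2 days come from separately scaled tables. Opn1sw, Opn1mw, Arr3 and Gnat2 have lasered replicate 1 far below the rest on day 3, whereas Gnb3 is above its controls on both days.

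The gamma subunits were nearer to the controls. Gngt1, the rod form, was at 769, 1513 and 1548 on day 3 against 1839, 1906 and 2201, without overlap (difference -0.70, SE 0.27, limma adjusted p = 0.189, and -0.37 without lasered replicate 1). Gngt2, the cone form, was at 75.2, 126 and 123 against 128, 131 and 160, also without overlap. Its difference was -0.40 (SE 0.22, limma adjusted p = 0.325), and -0.16 without lasered replicate 1. Gngt2 shares 234 exon bases with Abi3 on the opposite strand, and Abi3 stayed under 0.70 in each day 3 library. On day 7 the gamma forms overlapped with their controls, at 259, 433 and 258 against 250, 433 and 349 for Gngt1 and at 179, 65.8 and 134 against 183, 130 and 172 for Gngt2. Pdc, phosducin, which holds free beta-gamma subunits, was at 687, 1637 and 1879 on day 3 against 2007, 2381 and 2149. Its groups did not overlap, with a difference of -0.76 (SE 0.36, limma adjusted p = 0.253), and -0.31 without lasered replicate 1.

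Phosphodiesterase 6 is built from 2 catalytic subunits and inhibitory gamma subunits in rods, and from 1 kind of catalytic subunit and its own inhibitor in cones. Pde6g, the rod inhibitor, was at 1646, 5201 and 4115 on day 3 against 6347, 7388 and 5922, without overlap (difference -0.99, SE 0.40, limma adjusted p = 0.196, and -0.50 without lasered replicate 1). Pde6b, a rod catalytic subunit, was at 574, 1649 and 1260 against 2095, 1626 and 1810, with replicate 2 inside the control range (difference -0.79, SE 0.36, adjusted p = 0.248, and -0.35 without lasered replicate 1). Pde6a, the other rod catalytic subunit, was at 143, 231 and 197 against 210, 189 and 232, with replicate 1 alone below the controls. Pde6a thus lay nearer to its controls, with a difference of -0.17 (SE 0.20, limma adjusted p = 0.640). Pde6c, the cone catalytic subunit, was at 49.6, 71.8 and 64.6 against 77.1, 76.1 and 78.2. The 3 controls had a mean of 77.2 and an SD of 1.04, and all lasered libraries were lower. The Pde6c difference was -0.33 (SE 0.16, limma adjusted p = 0.271), and -0.18 without lasered replicate 1. Pde6h, the cone inhibitor, was at 55.7, 95.0 and 83.0 against 92.6, 96.4 and 103, and only replicate 2 reached the control range. Pde6h shares 136 exon bases with Arhgdib on the opposite strand, which was at 50.3, 20.4 and 22.4 in lasered retinas on day 3 and at 15.7, 13.7 and 11.1 in controls.

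On day 7 the phosphodiesterase genes overlapped with their controls in 5 of 5 cases. Pde6a was at 1144, 1794 and 1395 against 1159, 1897 and 1478, and Pde6b at 826, 1383 and 830 against 879, 1346 and 1071. For both, the replicate 2 libraries of the lasered and the control group were the highest. Pde6c was at 39.7, 101 and 34.6 against 33.7, 72.1 and 37.2, with the same replicate 2 pattern. Pde6g ran the other way, at 4212, 2811 and 3770 against 4382, 3871 and 4761, with replicate 2 lowest in both groups. Pde6h was at 100, 97.1 and 94.0 against 110, 84.1 and 88.4. The GC slope of the day 7 libraries differed in the same replicates, at -0.60 log2 per 10% GC in lasered replicate 2 and -0.21 in control replicate 2, against 0.10 to 0.29 in the other 4 libraries. The part of GC content in these gene values was not tested one by one.

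The channel genes held the member with the smallest p for a difference between the days. Cngb1, the beta subunit that tunes the rod channel, was at 36.6, 70.7 and 38.3 in lasered retinas on day 3 and at 19.9, 35.0 and 25.7 in controls. Every lasered library was above every control, and the difference was 0.80 (SE 0.30, limma adjusted p = 0.178). It was 0.48 after the GC trend was removed. On day 7 Cngb1 was at 241, 200 and 286 against 304, 338 and 266, each lasered library below the control mean of 303, with a difference of -0.33 (SE 0.17, limma adjusted p = 1.00). Cnga1, the rod channel's main subunit, went the other way on day 3, at 175, 310 and 303 against 524, 306 and 454. Its groups overlapped at control replicate 2, and the difference was -0.71 (SE 0.29, limma adjusted p = 0.196), or -0.44 without lasered replicate 1. On day 7 Cnga1 was at 11.3, 35.0 and 12.9 against 14.1, 22.2 and 16.7.

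The cone channel genes had the lowest control means of all members on day 3. Cnga3 was at 1.33, 2.75 and 1.91 on day 3 against 2.90, 3.34 and 2.58 (difference -0.42, SE 0.22, limma adjusted p = 0.292), and at 14.5, 14.3 and 18.2 on day 7 against 14.9, 14.6 and 14.99. Cngb3 was at 6.64, 10.7 and 10.6 on day 3 against 11.8, 10.9 and 15.8, without overlap (difference -0.43, SE 0.22, limma adjusted p = 0.290). Without lasered replicate 1 the day 3 difference was -0.25 for Cnga3 and -0.23 for Cngb3. On day 7 Cngb3 was at 0.20, 0.59 and 0.36 against 0.25, 0.34 and 0.24, from as few as 9 reads, and its mean was under the 1 needed for the test. Cnga3 rested on as few as 25 reads on day 3. Kcne2, a regulatory subunit of potassium channels, was at 31.4, 90.7 and 89.2 on day 3 against 103, 128 and 133. All its lasered libraries were below the controls (difference -0.91, SE 0.40, limma adjusted p = 0.223, and -0.42 without lasered replicate 1), and on day 7 its groups overlapped.

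The kinase, the GTPase regulator, the calcium sensors and the transporters had day 3 differences between -0.57 and -0.09. Grk1, the pigment kinase, was at 30.7, 51.5 and 40.0 on day 3 against 59.6, 41.9 and 58.6, and Rgs9, which speeds GTP hydrolysis by transducin, was at 14.9, 23.4 and 19.6 against 16.5, 20.1 and 25.4. Both overlapped with their controls. Rcvrn, recoverin, a calcium sensor that acts on the kinase, was at 2133, 5076 and 4166 against 5027, 5771 and 3809. Guca1a and Guca1b, the calcium sensors that activate guanylate cyclase, had differences of -0.20 and -0.17 on day 3, and each crossed 0 in 2 of 19 settings. Slc24a1, the rod exchanger that removes calcium, was at 65.9, 172 and 102 against 175, 127 and 157 (difference -0.53, SE 0.33, limma adjusted p = 0.374). Abca4, the transporter that clears retinal from the discs, was at 26.4, 45.9 and 24.7 against 54.0, 36.5 and 51.2 (difference -0.57, SE 0.27, adjusted p = 0.253). Without lasered replicate 1 the difference was -0.20 for Slc24a1 and -0.45 for Abca4. For 6 of these 7 genes the lowest library of the day was lasered replicate 1, and for Abca4 it was lasered replicate 3.

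The genes of the disc rim proteins had differences of opposite sign on day 3. Prph2 was at 840, 2096 and 1681 against 2231, 2463 and 2110, without overlap (difference -0.66, SE 0.32, limma adjusted p = 0.264, and -0.27 without lasered replicate 1). Its partner Rom1 was at 1153, 2721 and 1769 against 981, 2062 and 1249 (difference 0.38, SE 0.37, adjusted p = 0.576), and it crossed 0 in 2 of 19 settings. Rp1, a microtubule protein of the outer segment, was at 57.0, 89.8 and 72.3 against 113, 64.9 and 107. Nrl and Nr2e3, the transcription factors that set rod identity, had differences of -0.52 (SE 0.35, limma adjusted p = 0.405) and -0.44 (SE 0.25, adjusted p = 0.333). Without lasered replicate 1 these were -0.12 for Nrl and -0.15 for Nr2e3. In both, replicate 1 was lowest, at 38.5% of the control mean for Nrl and 48.9% for Nr2e3, and the groups overlapped.

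By day 7 the cone members lay around their controls and the rod members slightly below. Of 22 rod members 19 were lower, with a median of -0.19 (range -0.43 to 0.41), against a median of 0.06 and 38.5% lower over all 15592 genes tested. Of the 10 cone members tested 4 were lower, with a median of 0.04 (range -0.45 to 0.81). No member was called on day 7, where 0.244% of all genes were called, 0.237% higher and 0.00641% lower. Gnb3 was the 1 member with an unadjusted p under 0.05, against 3.94% of all genes in either direction, 3.14% higher and 0.795% lower. Groups did not overlap in 3 rod members that were lower (Rom1, Guca1b and Abca4), against 2.11% of all genes, and in 2 members that were higher (Sag and Gnb3), against 6.78%. Among markers of other cell types, 9 of 9 Müller glia markers had a higher mean log2 value, 4 of them without overlap (median 0.47, 1 called). Their sums were 9509 to 11004 in lasered and 6754 to 7524 in control retinas. Reactive gliosis markers were above the controls without overlap in 9 of 9 cases (4 called, sums of 728 to 814 and 166 to 214). Microglia markers had a higher mean in 10 of 10 cases, 9 of them without overlap (5 called, sums of 446 to 540 and 140 to 160.3). Lower means were found for 7 of 8 retinal ganglion cell markers (median -0.14) and 4 of 5 endothelial markers (median -0.42). The same held for 5 of 8 amacrine and horizontal cell markers (median -0.06). In these ganglion cell, endothelial, amacrine and horizontal cell lists 0 markers were without overlap in either direction. The highest endothelial difference was 0.89. Lens markers summed to 1051 in lasered replicate 1 and to 1.01 to 2.501 in the other 5 libraries, where single lens markers (Cryaa, Crygs and Lim2) were at 0 in 1 or more. The part of these cell types in the day 7 photoreceptor values was not tested. Rom1 was at 5320, 3815 and 5482 in lasered retinas against 7415, 5753 and 6025 (difference -0.40, SE 0.23, limma adjusted p = 1.00). Guca1b was at 1852, 1406 and 1729 against 2320, 1911 and 2029, and Abca4 at 396, 327 and 401 against 412, 422 and 492. The rod median was -0.0049 without control replicate 2 (11 of 22 lower), -0.08 without lasered replicate 1 (13 lower) and -0.11 without lasered replicate 3 (17 lower). By number alone, each lasered library had a lower rod median from the control mean than the control of that number. The medians were -0.19 against -0.11 in replicates 1, 0.0053 against 0.15 in replicates 2 and -0.25 against -0.03 in replicates 3. Equal numbers are not known to mark the same mouse, and lasered replicate 2 lay above control replicates 1 and 3. Opn1sw was at 974, 835 and 836 on day 7 against 975, 659 and 865, and Opn1mw at 451, 474 and 367 against 449, 443 and 405. Rod members made up 5.61%, 4.76% and 5.30% of the signal in lasered retinas on day 7 and 5.70% to 6.30% in controls, without overlap. The share in cone members was 0.337%, 0.318% and 0.311% in lasered and 0.262% to 0.285% in control retinas, with every lasered library higher. Gnb3 alone gave 1235, 1009 and 1260 of the summed value in lasered retinas, against 721, 606 and 668 in controls.

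**Figure D3:**
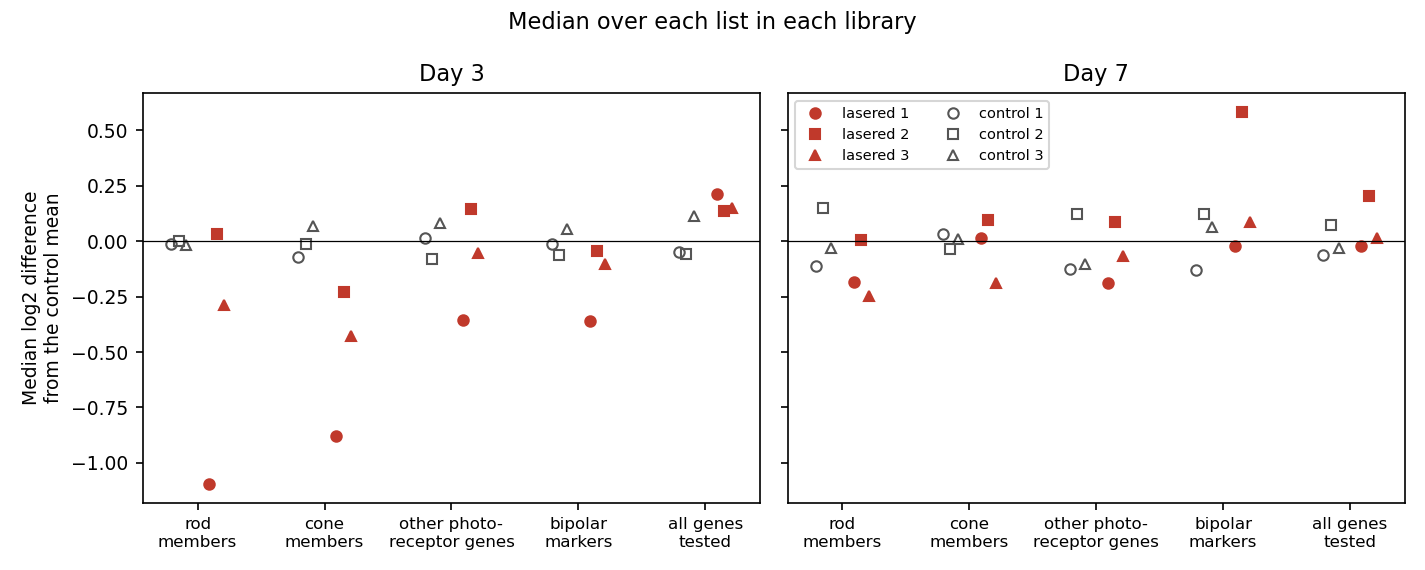
Median log2 difference from the control mean over each gene list in each library, by day; red symbols are lasered libraries and open symbols controls. On day 3 the rod and cone members reach -1.10 and -0.88 in lasered replicate 1, further down than the other photoreceptor genes (-0.35) or the bipolar markers (-0.36).

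The change between the days was tested as the interaction of day and laser. None of the 17611 genes tested passed (0%), members included, and 9.39% had an unadjusted p under 0.05. Among members the smallest p belonged to Cngb1, with an interaction of -1.13 (SE 0.38, limma adjusted p = 0.403). Gnb1 followed at 1.19 (SE 0.45, limma adjusted p = 0.460). Among cone genes the interaction was 1.78 for Opn1sw (SE 0.89, limma adjusted p = 0.575), 1.55 for Opn1mw, 1.37 for Arr3 and 1.13 for Gnat2. Without day 3 lasered replicate 1 these 4 values were 0.74, 0.61, 0.30 and 0.56, that of Gnb1 was 0.78 and that of Cngb1 was -1.29. Gnb3 had -0.09 (SE 0.23, adjusted p = 0.976), so its 2 daily differences were within their errors of each other.

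Other photoreceptor genes were described from a list of 36 that held no member. On day 3 20 of 36 had a lower mean log2 value, with a median of -0.10 (range -0.96 to 1.56), and 0 were called. In 10 of the 36 every lasered library was above every control, a share near the 27.7% of all genes. In 6 every lasered library was below, against 3.82% of all genes. Among these 6 were Mef2c (difference -0.91), Unc119 (-0.83) and Rdh12 (-0.64). The 3 genes with the smallest p, given next, were all higher. Rd3, a regulator of guanylate cyclase, was at 40.6, 39.3 and 19.7 against 10.6, 14.1 and 12.0 (difference 1.31, SE 0.28, limma adjusted p = 0.092). Aipl1, the chaperone of phosphodiesterase 6, was at 266, 251 and 184 against 123, 148 and 136 (difference 0.77, SE 0.17, adjusted p = 0.094), above its controls while its client Pde6b lay lower. Neurod1, a transcription factor of photoreceptors and other retinal neurons, was at 690, 553 and 652 against 380, 437 and 437 (difference 0.59, SE 0.14, adjusted p = 0.094). With the GC trend removed the median of this list was -0.38 with 25 of 36 below, and that of all genes was -0.06. On day 7 23 of 36 were lower (median -0.07), with 0 called and 0 free of overlap. Cabp4, Elfn1 and Gucy2e had the smallest day 7 p-values, all with limma adjusted p = 1.00.

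The level of many members in control retinas differed between the days. The 2 tables were scaled apart and sequenced to different depths, so this is a description. Nrl had a control mean of 61.2 on day 3 and 1491 on day 7, Grk1 53.4 and 753.5, Cngb1 26.9 and 303, and Abca4 47.2 and 442. Rp1 went from 95.1 to 3.40, Cnga1 from 428 to 17.7, Cngb3 from 12.8 to 0.28 and Gngt1 from 1982 to 344. Sag was at 2477 and 2435, and Opn1sw at 1010 and 833. Subunits of the same channel did not keep their proportions, since Cnga1 was above Cngb1 on day 3 and below it on day 7. Across the 33 members the shift between the days correlated with the GC content of the longest transcript with a Spearman rho of 0.68 (Pearson 0.70), and across all 19088 genes with a control mean of at least 1 on a day the rho was 0.62. Genes are not independent replicates, and all points share the same 6 control libraries. Differences between lasered and control retinas within a day had weaker relations to GC, with a rho of 0.39 over 33 members on day 3 (0.20 over all genes) and -0.36 over 32 members on day 7 (-0.29 over all genes).

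**Figure D4:**
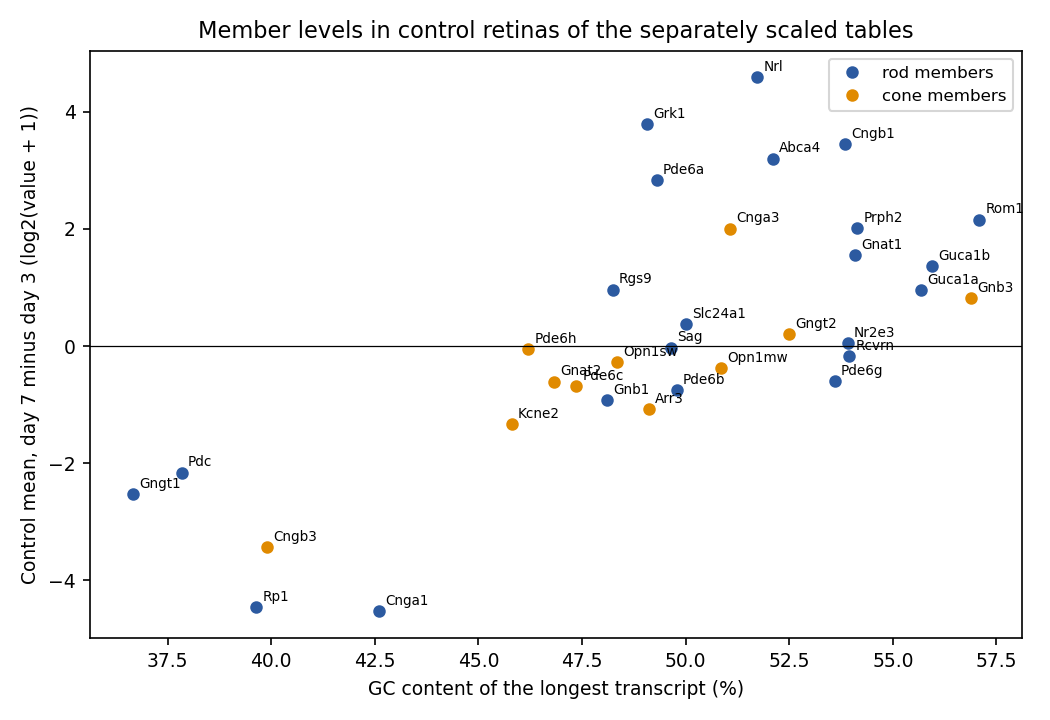
Control mean on day 7 minus day 3 (log2 of the deposited value + 1, from separately scaled tables) of each of the 33 members against the GC content of its longest transcript in percent; blue points are rod members and orange points cone members. Members of low GC such as Gngt1 and Cnga1 lie below 0, and Nrl, at 51.7% GC, lies highest at 4.59.

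Reads could be confused between few of the members. No rod and cone partner shared a 31-base word of its exons with the other, and only Cngb1 and Pde6h shared any with another member (2 words each). Opn1sw shared 14.03% of its words with Calu, whose exons overlap 397 of its bases on the opposite strand. Calu was at 76.7, 55.5 and 48.3 on day 3 in lasered retinas and at 53.7, 48.7 and 67.4 in controls, so its values are close to the 73.3 of Opn1sw in lasered replicate 1. The sources used here do not give whether the counting used strand, so that lowest Opn1sw value is uncertain by the reads it may share. Opn1mw, Arr3 and Pde6c shared no word with any other gene.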

How the data were processed

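Poly(A) RNA of 12 retina libraries was sequenced from a directional kit, per the labels' protocols, and sample titles gave the groups and replicate numbers. The mm10 build, STAR 2.7.0 and edgeR 3.28.0 are listed per the submitters' processing notes, with no roles stated. Which tool counted reads, whether it used strand, and which annotation it used are not known from the sources used here. The deposited signal per gene came as a table for each day. The authors named it TPM, but its column sums ran from 953049 to 1045986, where TPM would give the same total in each column.

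Multiplied by exon length in GENCODE M21 (start and end were the same for 53681 of 54367 genes), the values became whole multiples of a step for each library. This held once a factor cycling over 6 row positions was removed (0.955 to 1.04 for day 3, 0.962 to 1.05 for day 7). Between 98.9% and 99.2% of values under 20 reads were then whole within 0.05, which gave the reads per library. Value columns without a sample numbered 0.

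The 6 libraries of a day were fitted within that day's table on log2(value + 1), using lmFit and eBayes (trended, 2-sided) of limma 3.58.1 under R 4.3.3. Genes needed a mean of 1 or more. Benjamini-Hochberg adjustment ran over all genes tested, with a threshold of 0.05. Differences on this scale are too small for low genes. The interaction of day and laser was fitted over 12 libraries. The tests were set for TPM and were kept for the signal. The script was checked on simulated data.

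The members and lists were chosen with earlier results of these data known. Every member was described, with full values for the rod and cone partners and for up to 10 further members with the smallest p, and of the other photoreceptor genes the 3 with the smallest p of a day. Promoters came from RefSeq (GRCm38.p6), 250 bases before each start. Tables, sequences and plots were handled in Python 3.11.15 with pandas 2.3.3, NumPy 2.4.6 and matplotlib 3.10.9.

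By the design text each left eye is the control of the right eye of the same mouse, but replicate numbers are not tied to mice. Deviations of equally numbered libraries correlated by 0.485, 0.559 and 0.128 for day 7, all over 0.1, the rule used for pairing. For day 3 they correlated by 0.041, 0.016 and 0.077, which is under that rule. Unequal numbers passed it too on day 7, at 0.205 for lasered 3 with control 1 and 0.118 for lasered 1 with control 3. The rule therefore cannot show that equal numbers mark the same mouse. Alternatives were another pseudocount, filter or scaling, a replicate block, library weights, a joint fit of both days and leaving out each library. Undoing the cyclic factor, removing each library's GC trend (also with the block) and voom on the recovered reads were chosen after seeing the data. Protein sequences of the paralogs were not used here.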

Additional observations from a re-analysis of the deposited data

Results flagged for a closer look

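Cngb1, the beta subunit of the rod channel, had every lasered library above the control mean on day 3 (36.6, 70.7 and 38.3 against a mean of 26.9) and every lasered library below it on day 7 (241, 200 and 286 against 303). The interaction of day and laser was -1.13 (limma adjusted p = 0.403), so the difference did not pass the threshold. Opn1sw, the short-wavelength cone pigment, had every lasered library below the control mean on day 3 (73.3, 644 and 652 against 1010) and above it on day 7 (974, 835 and 836 against 833). Lasered replicates 2 and 3 of day 7 were at 100.3% of that mean. The Opn1sw interaction was 1.78 (limma adjusted p = 0.575) and did not pass either, and it was 0.74 without day 3 lasered replicate 1. The Cngb1 interaction without that library was -1.29.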

How the results depend on the processing

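No member was called on either day as reported. Of 626 values of single members under the day 3 alternatives 3 gained a call (Gnb3 higher in the joint fit and with library weights, Gnb1 lower in the joint fit), and of 607 on day 7 2 did (Gnb3 with weights and with the GC trend removed). Small differences crossed 0 in 15 of the 626 values (7 genes), in 52 of the 607 (18 genes) and in 50 of 792 interaction values (12 genes). The day 3 rod and cone medians stayed below 0 in all 19 alternatives each, between -0.72 and -0.17 and between -0.60 and -0.25 when 1 library was left out. The day 7 rod median ranged from -0.28 to -0.0049, the last without control replicate 2. The day 3 median of the other photoreceptor genes was -0.38 with the GC trend removed, with or without the replicate block. The median of all genes was then -0.06. The count over all genes on day 3, 25 as reported, was 1139 in the joint fit of 12 libraries, 369 with library weights, 14 with median-of-ratios rescaling, 12 with quantile normalization, 13 with voom on the recovered reads, 1 with the GC trend removed (also 1 with the replicate block too), and 0 with no filter, with a pseudocount of 5 and with the replicate block (3491 genes at an unadjusted p under 0.05). Leaving out 1 library gave 0 to 294, the highest without lasered replicate 1. On day 7 the count of 38 became 76 with the GC trend removed, 59 with the replicate block too, 25 in the joint fit, 114 with library weights, 24 with median-of-ratios rescaling, 13 with no filter and 18 with voom, and 0 to 41 with 1 library left out. The replicate block gave 53 on day 7 and called no member. The interaction count of 0 became 1119 with library weights, 28 with no filter, 2 with a pseudocount of 0.1 and 3 with a pseudocount of 5, and 0 to 3 with 1 library left out. The causes of these shifts were not tested. Depth limits Cngb3 on day 7 (as few as 9 reads) and Cnga3 on day 3 (25 reads).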
